A study of Arabidopsis thaliana with 2 samples.

Results

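Of the 1762 pairs of a gene and a peak that the authors listed for the clock protein LHY in Arabidopsis thaliana seedlings, 435 (24.7%) had a peak 51 to 300 bp upstream of the transcription start site (TSS). They were chosen by the position that the authors deposited for each peak, and this stretch is called the proximal window here. The 435 pairs belonged to 435 different genes of the 1602 in the list (27.2%), so no gene had more than 1 peak in the window. Chromatin immunoprecipitation followed by sequencing was done with an antiserum to LHY on Columbia (Col-0) seedlings, which were 2 weeks old and were collected 2 h after dawn. The ChIP library was made from a pool of 4 samples, with input DNA as the control library. Both libraries came from wild-type seedlings, and no plants without LHY were analysed here. With 1 library in each group there is no replicate error and depth is unknown, so the values are given as descriptions and no test was made.

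LHY is a MYB-type transcription factor that, with its close relative CCA1, accumulates around dawn. It binds short A- and T-rich elements, of which the evening element is the best known, and is known mostly as a repressor of genes that are expressed later in the day. The stretch just upstream of the TSS holds the core promoter and many of the elements that regulators bind. Peak strength here is the −log10 q that the peak caller gave each peak, as deposited by the authors. The phase is the hour after subjective dawn at which a gene's transcript peaks in constant light. The authors took it from the Diurnal database, and a gene with a listed phase is called rhythmic.

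Within the window, peaks were crowded towards the TSS. The stretches from 51 to 100, 101 to 150 and 151 to 200 bp upstream held 110, 109 and 107 pairs, whereas those from 201 to 250 and 251 to 300 bp held 55 and 54. The density therefore stepped down at about 200 bp. On either side of the window, 117 pairs lay 1 to 50 bp upstream and 43 lay 301 to 350 bp upstream. A peak had been assigned by the authors to the nearest gene that points away from the peak. At the far edge the last pairs inside were AT1G36095 (2.61 at −299 bp), AT3G62940 (6.34 at −298 bp) and AT1G55340 (9.22 at −296 bp). The nearest pairs beyond it were AT2G44310 (8.50 at −301 bp), AT1G72950 (2.47 at −303 bp) and HSFA6B (21.7 at −304 bp). At the near edge AT1G25400 (93.7), NYC1 (30.8) and DREB2B (25.6) lay inside at −51 bp, and PIF7 (3.55 at −50 bp), XW6 (18.8 at −49 bp) and FBS2 (7.35 at −49 bp) lay just outside.

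**Figure D1:**
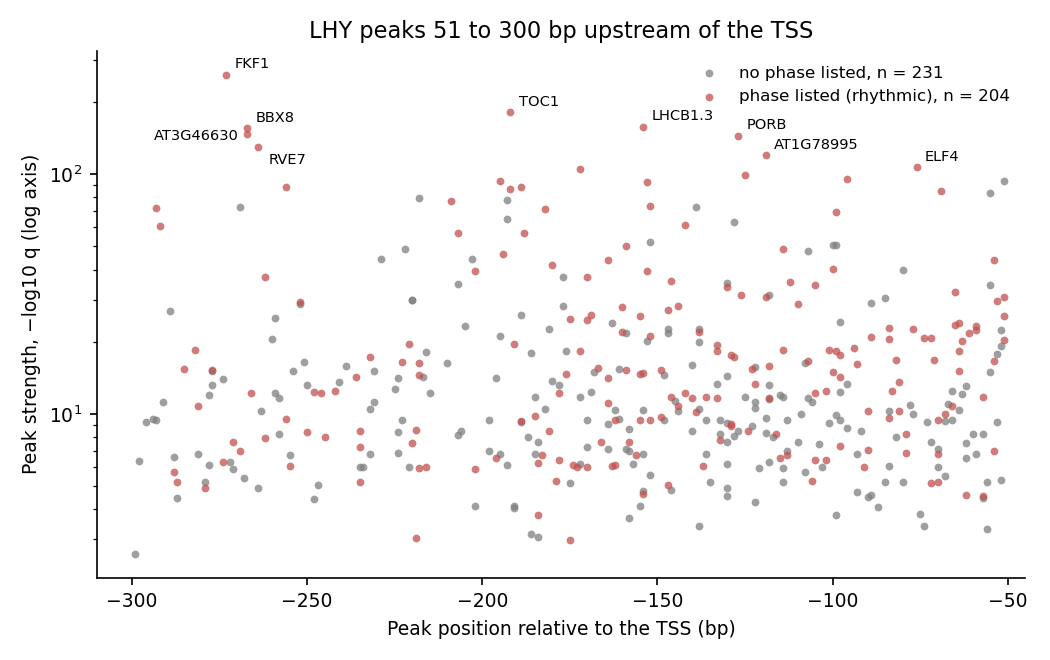
Peak strength (−log10 q, log axis) against position relative to the TSS (bp) for the 435 pairs 51 to 300 bp upstream. Each point is 1 pair, red for the 204 genes with a listed phase and grey for the 231 without; the strongest peaks, from FKF1 at 260.1 down to ELF4 at 107, are spread over the whole window.

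The strength of proximal peaks ran from 2.61 to 260.1, with a median of 11.6 and quartiles of 7.02 and 20.7. Over all pairs of the list the median was 10.2 and the quartiles were 6.80 and 17.3. Above the median of all pairs lay 242 proximal pairs (55.6%, against 50% of all pairs by construction). Above that upper quartile lay 134 proximal pairs (30.8%), against 24.6% of all pairs. Values of 50 or more were reached by 38 proximal pairs (8.74%), against 5.9% of all pairs. Of the 10 strongest pairs in the list 6 were proximal, as were 23 of the strongest 50 and 37 of the strongest 100. The median was 10.3 for pairs at the TSS, downstream of it or up to 50 bp upstream, and 10.3 for those over 300 to 1000 bp upstream. It was 9.38 over 1000 to 2000 bp and 9.39 beyond 2000 bp. Strength did not follow distance inside the window, with a Spearman correlation of 0.015 between position and −log10 q over the 435 pairs.

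The strongest proximal peak was at FKF1 (AT1G68050), whose product senses blue light and marks clock and flowering proteins for degradation, with 260.1 at −273 bp. TOC1 (AT5G61380), an evening pseudo-response regulator that represses LHY and CCA1, followed with 182 at −192 bp. The light-harvesting gene LHCB1.3 (AT1G29930) had 158 at −154 bp. Copies of LHCB1 are nearly identical in sequence, and the sources used here do not say how reads matching several copies were placed. BBX8 (AT5G48250), a B-box zinc finger gene with a CCT domain, had 156 at −267 bp. At the same distance AT3G46630, a gene of unknown function that lies beside LUX, had 148.

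The chlorophyll synthesis gene PORB (AT4G27440) had 145 at −127 bp and the MYB gene RVE7 (AT1G18330) had 129.9 at −264 bp. AT1G78995, which encodes an unknown protein with a phase of 11 h, had 120.2 at −119 bp. ELF4 (AT2G40080), an evening complex component, had 107 at −76 bp, and LHCB1.4 (AT2G34430) had 105 at −172 bp. These 10 pairs were all those above 100, and each of the 10 genes was rhythmic. The next 5 were PRR7 (98.9), the plastid nucleoid gene PTAC17 (95.4), MYBL2 (94.1), a MYB repressor of anthocyanin synthesis, AT1G25400 (93.7), which encodes an unknown protein, and PRR9 (93.1). Among these 15 genes AT1G25400 was the only one without a phase. The 3 weakest proximal peaks were at CRK18 (3.04), a receptor-like kinase gene, CLE44 (2.99), a peptide hormone gene, and AT1G36095 (2.61).

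The clock lists gave 13 proximal genes. Of 15 evening clock genes, 6 had a proximal peak (40.0%), against 1.51% of the 27444 nuclear protein-coding genes. Besides FKF1, TOC1 and ELF4 these were GRP7 (88.6 at −189 bp) and GRP8 (28.3 at −144 bp), which encode RNA-binding proteins of a clock-driven feedback loop, and PRR3 (14.2 at −164 bp), a TOC1 relative. The evening genes bound elsewhere were ELF3, BOA, GI, PRR5, CHE and JMJD5. For 3 of these the strongest peak was only just nearer the TSS or downstream of it, with BOA at −45 bp (127), ELF3 at −19 bp (62.7) and JMJD5 at 37 bp downstream (161). Of the bound evening genes 6 of 12 were thus proximal, against 27.2% of all bound genes.

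Of 13 morning clock genes, 7 had a proximal peak (53.8%), and only RVE1 was bound elsewhere. LHY itself had 28.7 at −110 bp and CCA1 had 60.6 at −292 bp, close to the far edge of the window. PRR7 and PRR9, which repress LHY and CCA1 during the day, had their peaks at −125 and −153 bp. RVE2 had 43.9 at −164 bp, and LNK2, a coactivator acting with REVEILLE proteins, had 27.2 at −147 bp. All 7 lay above the upper quartile of all pairs, as did 5 of the 6 evening genes, PRR3 being the exception. TIC (AT3G22380), which encodes a nuclear regulator of the clock and stands outside these lists, had a weak proximal peak of 6.74 at −183 bp and a stronger one of 27.5 at −2730 bp.

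**Figure D2:**
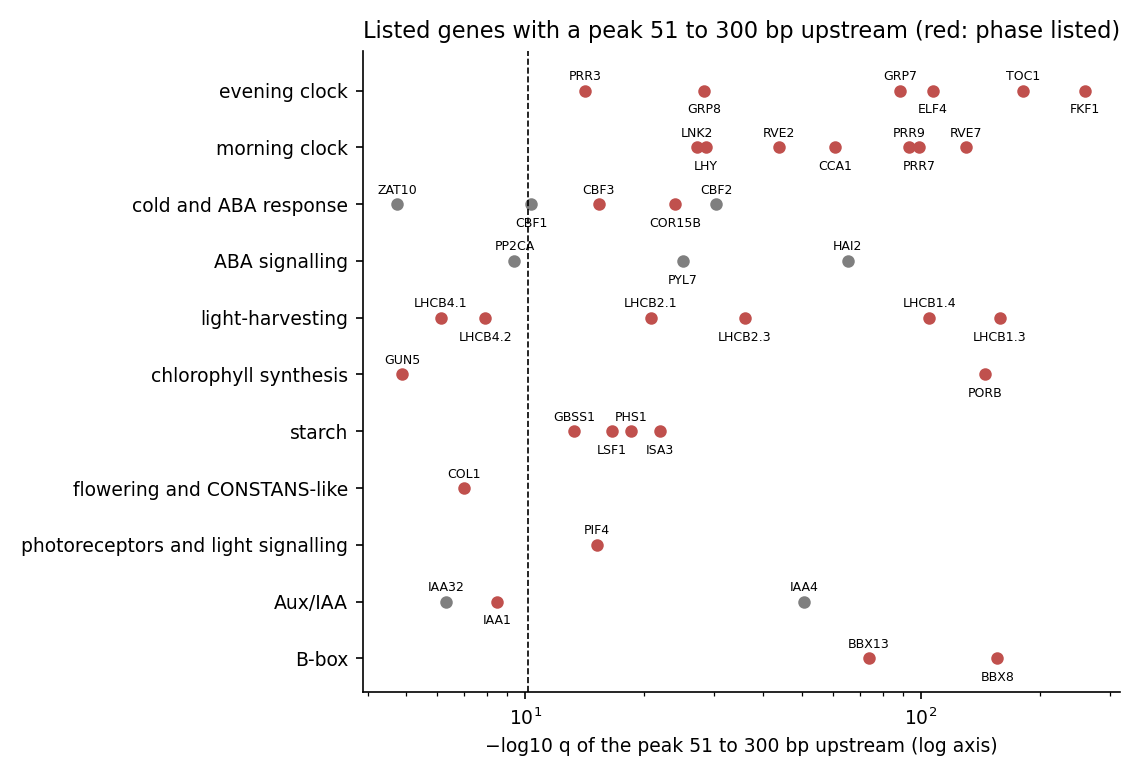
Strength (−log10 q, log axis) of the peak 51 to 300 bp upstream for the 40 genes of 11 lists that have one, red with and grey without a listed phase. The dashed line is the median of all pairs, 10.2; all 13 clock genes lie above it, from PRR3 at 14.2 to FKF1 at 260.1.

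Of 20 light-harvesting genes, which encode the chlorophyll-binding antenna proteins, 6 had a proximal peak (30.0%). After LHCB1.3 and LHCB1.4 came LHCB2.3 (35.8 at −146 bp) and LHCB2.1 (20.8 at −74 bp), antenna genes of the same trimeric complex of photosystem II. LHCB4.2 (7.92 at −262 bp) and LHCB4.1 (6.13 at −174 bp), which encode a minor antenna protein, were weaker. Each of the 6 genes was rhythmic and peaked between 0 and 4 h. The 2 bound light-harvesting genes outside the window, LHCA4 at −21 bp and LHCA1 at 95 bp downstream, belong to photosystem I, so each proximal one was an antenna gene of photosystem II. LHCA4 and LHCA1 were rhythmic as well, at 3 and 5 h. In chlorophyll synthesis PORB and GUN5, a subunit of magnesium chelatase (4.89 at −279 bp), were the 2 proximal members of 13.

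The table's own descriptions widened this group. In 15 genes with a proximal peak the text mentioned chlorophyll or a photosystem (3.45%), against 1.62% of all bound genes. Expressed the other way, 15 of the 26 bound genes with such text (57.7%) were proximal. Beyond those already named they included the photosystem II subunit genes PSBTN (47.9 at −107 bp), PSBP-1 (18.2 at −99 bp), PSBO1 (5.24 at −106 bp) and PSBR (3.70 at −158 bp). PSB27 (8.94 at −129 bp) and LPA66 (7.99 at −187 bp) act in the assembly or editing of photosystem II components. Of the 15 genes, 12 were rhythmic, 8 of them with a phase of 0 to 5 h. Rhythm and phase of all 26 bound genes as a class were not analysed here.

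Of 16 genes responsive to cold or abscisic acid (ABA), 5 had a proximal peak (31.3%). The tandem genes CBF1, CBF2 and CBF3, which encode activators of cold-induced genes, each had a proximal peak that was weaker than a second one farther upstream. CBF1 had 10.3 at −64 bp beside 202 at −772 bp, CBF2 had 30.4 at −85 bp beside 38.6 at −1673 bp, and CBF3 had 15.3 at −123 bp beside 94.6 at −2144 bp. At none of the 3 did the window hold the main peak. COR15B, a chloroplast protein gene induced by cold, had 23.9 at −64 bp as its only peak, and ZAT10 had 4.75 at −154 bp. AT4G33980, whose closest protein in the table's text is COR27, had 43.8 at −54 bp and 56.9 at −1227 bp. It is not counted among the 16 genes, for which the symbol COR28 found no match.

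Cold terms in the table's text picked out 11 proximal genes (2.53%, against 1.69% of all bound genes). AOX1A, the alternative oxidase of mitochondria, led with 88.4 at −256 bp, and COR314-TM2, a cold-regulated thylakoid membrane protein, had 78.2 at −193 bp. The neighbouring genes AT4G30650 (42.0 at −180 bp) and AT4G30660 (39.6 at −202 bp) both encode small proteins responsive to low temperature and salt. Their phases were also alike, at 10 and 9 h. COR413-PM1, a cold-regulated protein of the plasma membrane, had 22.9 at −84 bp, and TIL, a temperature-induced lipocalin, had 24.9 at −175 bp. Of these 11 genes 9 lay above the upper quartile of all pairs, and 6 had a phase of 6 to 11 h. The same shares over all bound genes with cold terms were not analysed here.

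Of 29 ABA signalling genes 3 had a proximal peak, and none of the 3 was rhythmic. HAI2 and PP2CA encode phosphatases that hold the pathway off, and PYL7 encodes a receptor. HAI2 had 65.3 at −193 bp, PYL7 had 25 at −259 bp and PP2CA had 9.39 at −113 bp. HAI2 and PP2CA each had further, weaker peaks upstream.

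Of 19 starch genes 10 were bound and 4 were proximal, and these 4 were all rhythmic. Outside the window SS4 (11 h), PHS2 and SEX1 (10 h), and SEX4 and AMY3 (8 h) were rhythmic too, and ISA1 had no phase. ISA3, a debranching enzyme, had 21.9 at −160 bp. PHS1, the plastid starch phosphorylase, had 18.6 at −114 bp. LSF1, a phosphatase-like protein of starch breakdown, had 16.6 at −54 bp. These 3 had phases of 8 or 10 h, whereas GBSS1, the starch synthase that makes amylose, had 13.3 at −122 bp and a phase of 21 h. The starch branching enzyme gene SBE2.1, outside the list, had 8.59 at −219 bp and a phase of 8 h. BAM5, a beta-amylase gene also outside the list, had 10.5 at −182 bp and no phase.

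In the flowering and CONSTANS-like list 1 of 15 genes was proximal, COL1 (7.02 at −269 bp), and 6 were bound. Its CONSTANS-like members were only CO, COL1 to COL5 and COL9. Among photoreceptor and light signalling genes 1 of 20 was, the bHLH gene PIF4 (15.2 at −159 bp), and again 6 were bound. Of 25 B-box genes, in a list that began at BBX7, 10 were bound and 2 were proximal, BBX8 and BBX13 (73.9 at −152 bp). Both are described as having a CCT domain and were counted in the B-box list only. In these 3 lists 16.7%, 16.7% and 20.0% of the bound genes were proximal, against 27.2% of all bound genes. With 6, 6 and 10 bound genes, each share would change much with 1 gene. PIF7 of the light signalling list lay just outside the window at −50 bp. In the light-harvesting list the share was 75% and in the morning clock list 87.5%, and the differences between lists were not tested. Of 29 Aux/IAA genes, which encode repressors of auxin response, 7 were bound and 3 of these were proximal (42.9%). They were IAA4 (50.6 at −99 bp), IAA1 (8.49 at −235 bp) and IAA32 (6.31 at −118 bp). The value and nearly the position of IAA4 recur at SAG24 on another chromosome (50.6 at −100 bp).

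Several groups of genes with like symbols had more than 1 proximal member. Symbols that share their letters before the number occurred at 69 proximal genes in 28 groups, and members of a group often differed in strength. Such a group is not always a gene family. The ERF group, for example, holds ERF2 and also ERF1-3, a eukaryotic release factor gene. The same count over all bound genes was not analysed here. The citrate synthase genes CSY2 and CSY3 had 61.4 at −142 bp and 8.72 at −96 bp. The glucosyltransferase genes UGT73B1 and UGT73B5 had 44.3 and 4.13 at almost the same distance, −203 and −202 bp. RABA1c and RABA1d, which encode small GTPases of vesicle traffic, had 32.3 at −65 bp and 6.85 at −79 bp. Other groups were closer. BOP1 and BOP2, which shape leaf bases and floral organs, had 5.92 and 10.3. The jasmonate synthesis genes AOC1 and AOC2, which are neighbours, had 16.3 at −108 bp and 5.23 at −85 bp. The galactinol synthase genes GolS2 and GolS3, which act in stress tolerance, had 15.1 and 7.12.

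Rhythmic genes made up 204 of the 435 (46.9%, 95% exact Clopper-Pearson interval 42.1 to 51.7), against 38.1% of all bound genes. The interval covers counting error only and treats genes as independent. The share was 48.1% for genes with a peak nearer the TSS or downstream, 32.9% over 300 to 1000 bp, 35.2% over 1000 to 2000 bp and 30.7% beyond 2000 bp. A share of this size was thus found at the TSS as well as in the window. How many of the genes the phase database covers was not analysed here. Inside the window rhythmic genes had a median strength of 15.2 and the 231 others 9.39.

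Most rhythmic proximal genes peaked during the subjective day. A phase of 6 to 8 h was listed for 59 (28.9%, against 30.7% of all rhythmic genes in the list), and 9 to 11 h for 41 (20.1%, against 14.8%). The early class of 0 to 5 h held 49 genes (24%, against 22.5%). The evening class of 12 to 17 h held 33 (16.2%, against 17.4%), and the late-night class of 18 to 23 h held 22 (10.8%, against 14.8%). The most frequent hour was 8 h, with 29 genes, GRP7, GRP8, COR15B, PHS1 and ISA3 among them. At 10 and 11 h there were 17 each, including FKF1, TOC1 and BBX8.

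**Figure D3:**
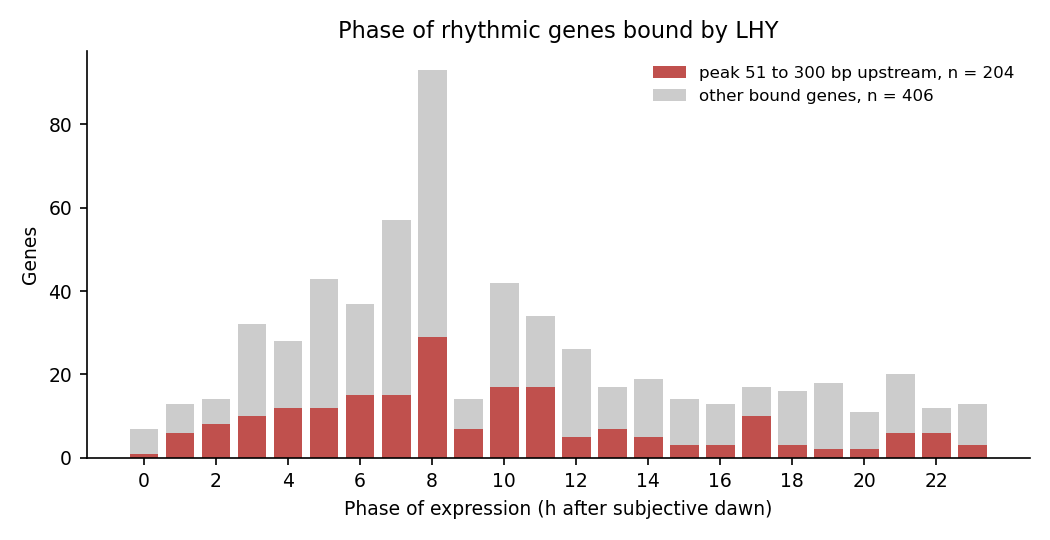
Number of rhythmic bound genes (y axis) by phase in hours after subjective dawn (x axis). Red bars are the 204 genes with a peak 51 to 300 bp upstream, stacked under grey bars for the 406 others; both are highest at 8 h, with 29 of 93 genes proximal.

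Every phase class had a clock gene among its 3 strongest. At 0 to 5 h LHCB1.3, RVE7 and LHCB1.4 were the strongest, all at 3 h. At 6 to 8 h AT3G46630, PORB and PRR7 led, and at 9 to 11 h FKF1, TOC1 and BBX8. At 12 to 17 h the strongest were ELF4 (12 h), AOX1A (17 h) and BBX13 (12 h). In the late night, at 18 to 23 h, CCA1 led, followed by AT1G72030, an acyltransferase-like gene (40.2 at −100 bp), and LHY. In that order of the classes the median strength was 12.2, 17.5, 19.5, 9.39 and 8.91. Of the 22 late-night genes only CCA1 exceeded 50.

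Strength and phase went together most visibly at the extremes. All pairs of the list were divided at its quartiles of strength, 6.80, 10.2 and 17.3. Of the proximal genes 35.9%, 36.7%, 44.4% and 64.2% were rhythmic from the weakest to the strongest group. For genes with pairs outside the window the shares were 27.7%, 31.7%, 40.5% and 46.6%. Among rhythmic proximal genes a phase of 6 to 11 h was held by 5 of 37 in the weakest group (13.5%), 15 of 33 (45.5%), 27 of 48 (56.3%) and 53 of 86 in the strongest (61.6%). Over all rhythmic genes of the list that share was 45.4%. Outside the window the same shares were 41.3%, 29.5%, 49.6% and 49.6%, and the difference between the 2 sets was not tested.

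The weakly bound rhythmic genes of the window mostly had other phases. Of those 37 genes 12 were in the early class, 13 in the evening class and 7 in the late-night class. These were 32.4%, 35.1% and 18.9%, against 24%, 16.2% and 10.8% of all rhythmic proximal genes. The same classes were not counted for weak pairs outside the window. Weakly bound proximal genes with other phases included GUN5 (1 h), LHCB4.1 (4 h) and PRE1 (3 h, 5.23), a growth-promoting helix-loop-helix gene. At 17 h they included NAC032 (6.05), CYP81D5 (4.64), CRK18 and CLE44. The 5 with a phase of 6 to 11 h were TIC, the RNA editing gene MORF9 (6.25), RCI2A (5.23), a small membrane protein induced by cold, PSBO1 and a histone family gene, AT2G28720 (6.0).

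**Figure D4:**
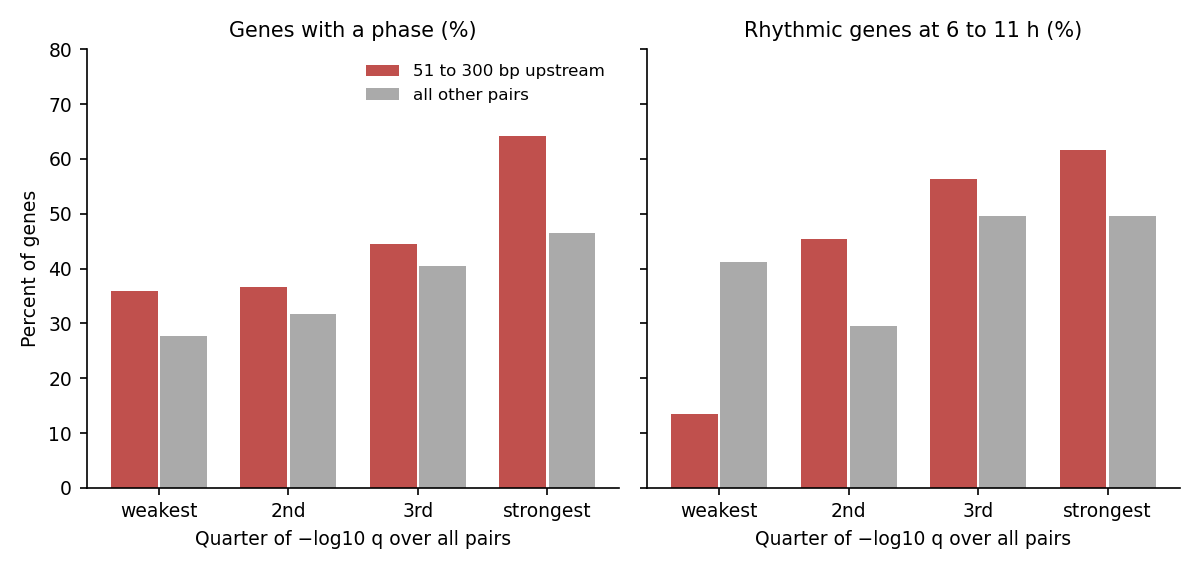
Percent of genes with a phase (left) and percent of rhythmic genes with a phase of 6 to 11 h (right), by strength group over all pairs. Red bars are pairs 51 to 300 bp upstream and grey bars all other pairs; on the right the red bars go from 13.5% to 61.6%.

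Function classes were read from words in the table's descriptions, which are terse for some genes. Rhythm within a class was counted for proximal genes only. Words for families of transcription factors occurred at 52 proximal genes (12%, against 12.5% of all bound genes). The words also caught other genes, such as the RING gene RDUF1 and MCM10. They missed some transcription factor genes of the window, among them PIF4, DREB2B, ERF2 and CBF3. Outside the clock lists the strongest were BBX8, MYBL2, BBX13 and AGL44 (72.8 at −269 bp), the MADS-box gene also known for nitrate responses of roots. WRKY11 (31.4 at −118 bp), WRKY25 (10.5 at −138 bp), NAC046 (21.7 at −159 bp) and GBF2 (17.5 at −129 bp), a bZIP gene, represented stress-related families. Floral identity was represented by AP1 (6.80 at −136 bp) and petal development by PTL (9.39 at −170 bp). Of the 52 genes 25 were rhythmic (48.1%, against 46.9% of all proximal genes).

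Protein kinases accounted for 15 proximal genes (3.45%, against 3.56%), with AT2G45590 (28.7), AT3G58690 (20.9) and AT3G59350 (18.4) in the lead. Phosphatases numbered 6 (1.38%, against 1.75%), led by HAI2, the trehalose phosphatase gene TPPE (34.8 at −207 bp) and LSF1. F-box, RING and ubiquitin words occurred at 14 (3.22%, against 3.43%), with FKF1, the polyubiquitin gene UBQ3 (39.9 at −80 bp) and the F-box gene PP2-B10 (22.6 at −138 bp) at the top. The auxin receptor gene TIR1 (11.7 at −140 bp) was also among them. Transporter words occurred at 9 (2.07%, against 3.62%), led by the MATE family gene AT4G38380 (35.1), TIL, whose text names transport, and ANTR2 (20.2), a plastid anion transporter. Cytochrome P450 and peroxidase genes were 5 (1.15%, against 1.25%), with CYP72A15 (14.6), APX3 (9.89) and AT4G31760 (9.50) the strongest.

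Auxin words marked 8 genes (1.84%, against 2.18%), led by BRU6 (63.2 at −128 bp), a GH3 family gene that conjugates auxin, AT1G56220 (56.6 at −188 bp) and IAA4. ABA response terms marked 4 (0.920%, against 0.874%), with COR413-PM1, HD2C (14.2), a histone deacetylase, and HVA22E (6.0) at the head. Light response terms marked 11 (2.53%, against 1.69%), led by FKF1, UBQ3 and LHCB2.3. Photosynthesis as a process was named at 7 (1.61%, against 0.999%), 6 of them rhythmic, with LHCB1.3, LHCB1.4 and LHCB2.3 first. The nucleus was the listed location of 21 (4.83%, against 5.37%), led by ELF4, GRP7 and AGL44. The chloroplast or another plastid compartment was that of 69 (15.9%, against 12.9%), and 47 of these 69 (68.1%) were rhythmic. The rhythmic share of all 207 bound genes with this location was not analysed here. LHCB1.3, AT3G46630 and PORB had the strongest peaks of the 69.

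**Figure D5:**
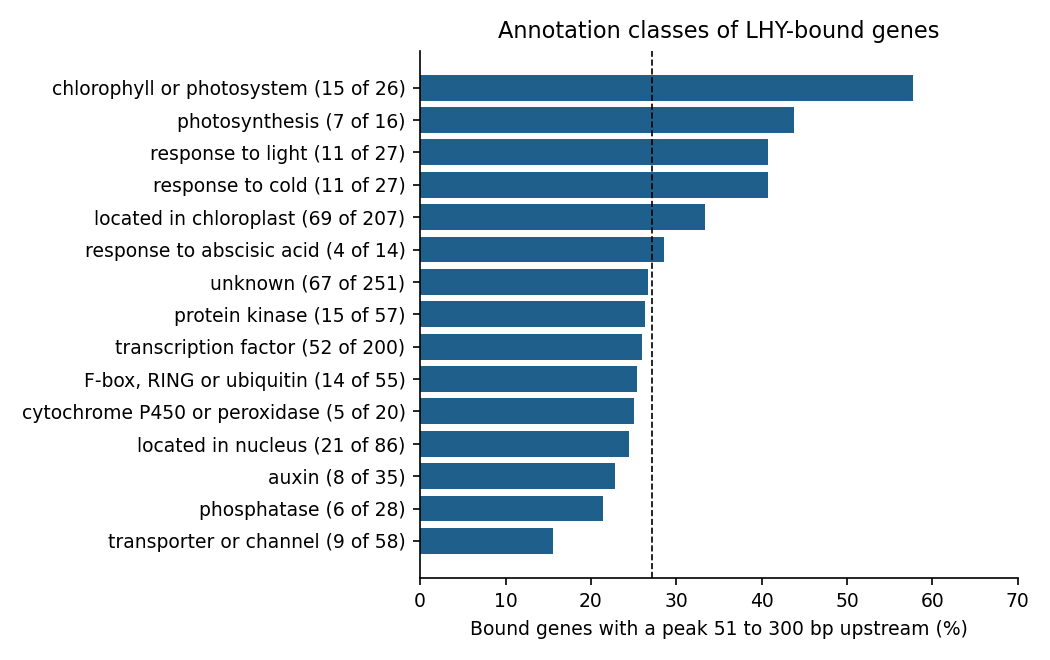
Percent of the bound genes in each annotation class that have a peak 51 to 300 bp upstream, with the counts beside each class. The dashed line is the share over all bound genes, 27.2%; the bars run from 15.5% for transporter or channel words to 57.7% for chlorophyll or photosystem words.

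Genes of unknown function were 67 of the 435 (15.4%, against 15.7%), and some had very strong peaks. After AT3G46630, AT1G78995 and AT1G25400 came AT3G15630 (77.4 at −209 bp, phase 9 h) and AT4G28180 (72.9 at −139 bp). Of the 67, 20 lay above the upper quartile of all pairs (29.9%, against 30.8% of all proximal pairs). Protein-coding genes made up 415 of the 435 (95.4%, against 92.2% of all bound genes). The others included 7 pseudogenes (1.61%, against 4.31%), 3 tRNA genes, 3 long noncoding RNA genes and the microRNA genes MIR163 (14 at −274 bp) and MIR167a (6.0 at −103 bp).

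Most proximal peaks were the only peak of their gene. Further peaks were listed for 38 of the 435 genes (8.74%, against 9.11% of all bound genes), 43 peaks in all. At 23 of the 38 the proximal peak was the strongest, as at LHCB1.3 (158 against 5.33 at −679 bp), HAI2 and RVE2. At 15 a peak elsewhere was stronger, as at the CBF genes, OBP4, a Dof transcription factor gene (21.7 against 61.6 at −3641 bp), and AT5G60680 (7.64 against 53.9 at −1794 bp). Of the further peaks 15 lay over 300 to 1000 bp, 13 over 1000 to 2000 bp and 14 more than 2000 bp upstream, and 1 lay nearer the TSS than the window or downstream of the TSS.

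Some proximal peaks may also have been assigned to a neighbouring gene. Sharing was inferred from equal −log10 q values, which also recur at distant genes, as the 21.7 of OBP4 does at NAC046. At 12 genes the same −log10 q was listed for a gene at most 5 places away in the annotation, which came to 11 gene couples. In none of them was the peak proximal for both genes. AT1G75180 had 72.1 at −293 bp with a phase of 1 h, and AT1G75190 had the same value at −760 bp with a phase of 7 h. The dynamin gene DL1E and AT3G60200 shared 33.9 at −130 and −1295 bp, and both had a phase of 10 h. OBP4 and AT5G60840 shared 21.7 at −61 and −5898 bp, both at 3 h. IAA1 and its neighbour IAA14 shared 8.49 at −235 and −10805 bp. AT3G59340 and AT3G59350 shared both of their peaks, each proximal to a different gene of the couple, with 8.03 at −82 bp from AT3G59340 and 18.4 at −282 bp from AT3G59350.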

How the data were processed

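ChIP DNA and input DNA were sequenced as 1 library each. Per the submitters' processing notes, Bowtie, MACS2 2.0.10.09132012 and the TAIR9 build were used; the sources used here do not state the threshold of the caller. The authors' deposited table gives, per the file headers, up to 4 peaks per gene, each with a −log10 q value and a position in bp from the TSS. A second header describes them as −log10 p-values. Whether a position marks the summit, centre or edge of a peak is unknown. Phases were taken by the authors from Diurnal at a cut-off of 0.8.

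All pairs from −300 to −51 bp were taken. Loci were matched to a TAIR10.1 gene table for symbols, biotypes and neighbours (1596 of 1602 matched), and no coordinate from it was used. Sequences were not analysed here, so the planned motif counts were not made. Members and gene lists were chosen with earlier results of these data known. Of 222 list symbols 8 were left out: COR28, CDF5 and BBX11, which were not matched, and IAA21 to IAA25, which are auxin response factors. The lists hold 213 loci, as BBX7 and COL9 are the same gene.

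Genes named were the 15 strongest and 3 weakest pairs, all list members in the window, the 3 strongest of each phase and function class, and pairs beside the limits. Others, among them the groups of like symbols, TIC, SBE2.1, BAM5, the genes with further or shared peaks and the additional examples of a class, were chosen after their values were seen. Of the 15 function classes 6 (response to cold, light and ABA, photosynthesis, chloroplast, nucleus) and the strength limits of 50 and 100 were also set after the values were seen. Scripts were tested on simulated data. Python 3.11.15, NumPy 2.4.6, SciPy 1.17.1 and Matplotlib 3.10.9 were used.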

Additional observations from a re-analysis of the deposited data

How the results depend on the processing

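Of 24 alternative values for strength, rhythmic share and phase shares, 20 stayed within the 95% interval of the value reported and 4 did not, all of them with pairs above the median strength alone. There the rhythmic share was 55.4% (46.3% over all pairs above the median), and the shares of phases at 6 to 8, 12 to 17 and 18 to 23 h were 36.6%, 11.2% and 5.97% (34.3%, 14.3% and 12.7% over all pairs above the median). The cause was not tested. With the window ended at 250 bp the median strength was 11.6, and with protein-coding genes alone the rhythmic share was 49.2% (41.2% over all protein-coding genes in the list). Counting shared peaks once changed nothing, since no peak was proximal for both genes of a couple. Apart from the pairs above the median (242), the alternatives kept 381 or more of the 435 pairs. They therefore had little room to leave the interval. The 3 alternatives for promoter motifs were not run. Depth is unknown, and 1 library per group leaves variation between chromatin preparations unmeasured. No paired analysis was possible because there was 1 ChIP and 1 input library.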

Other observations

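Of the 17 bound genes with a phase of 17 h in the list, 10 were proximal (58.8%), against 33.4% of rhythmic genes at any hour. The share was 57.1% at 2 h (8 of 14 genes) and 50% at 9, 11 and 22 h, so 17 h does not stand apart. The 10 genes at 17 h included AOX1A, ENODL2 (49 at −114 bp), an arabinogalactan-like protein gene, CYCP2;1 (11.7), a cyclin gene, and NF-YA7 (9.39). The hour was singled out after the values of all hours had been seen, and no test was made.

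Equal −log10 q values recur at distant genes. This held for 193 of the 435 proximal pairs (44.4%), 29 of them above the upper quartile of all pairs. The same share over all pairs of the list was not analysed here, so it is not a trait of the window. AOX1A shares 88.4 with COR27 on another chromosome, and ELF4 shares 107 with MIR172a. At 6 pairs a distant gene matched in value and, within 1 bp, in position. SAG24 and IAA4 (ATAUX2-11) on chromosomes 1 and 5 had 50.6 at −100 and −99 bp. SDH2-1, a succinate dehydrogenase subunit gene, and AT5G09445 on chromosomes 3 and 5 had 29.8 at −220 bp each, and HVA22E and AT5G23910 had 6.0 at −234 and −235 bp. The cause was not tested.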
